A study of Mus musculus with 4 samples.

Results

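The MYC and ribosome biogenesis genes are a list of 49 genes: Myc itself and 48 genes that encode nucleolar proteins, rRNA-processing factors and RNA polymerase I subunits or cofactors. Members were matched by gene symbol, and all 49 were present in the tables of all 4 libraries, out of 19555 rows in each. All 49 also had a mean of at least 1 RPKM (read density along the exons, divided by sequencing depth) and so entered every comparison, among 13715 rows in all. MYC is a transcription factor that activated T cells switch on as they grow, and genes for ribosome production are among its best-known targets. In the nucleolus, RNA polymerase I copies the ribosomal DNA into a long precursor rRNA. Small nucleolar ribonucleoproteins (snoRNPs) of the box C/D kind guide its methylation, and those of the box H/ACA kind guide its pseudouridylation. Separate sets of assembly factors then build the small and the large ribosomal subunit.

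The cells were naive CD4+ T cells taken from C57BL/6 mice (spleen plus lymph nodes) and driven for 3 days with IL-6 and TGF-β1 towards the T helper 17 (Th17) fate. The cultures of interest carried the label Smad4 KO (Smad4 encodes the shared partner of the TGF-β-activated SMAD proteins) or were kept at the fever-range temperature of 39.5 °C. They were set against wild type (WT) and against 37 °C. The labels give no promoter, Cre or exon for the deletion and no number of mice. Each of the 4 combinations had 1 library, so a ratio between 2 libraries has no replicate check, and the 95% intervals printed with it cover counting error only. No label says if separate mice or cultures gave rise to them.

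Whole reads recovered from the RPKM values came to between 18050834 and 18476671 per library. All 7 T cell markers were detected in every library, and the 6 Th17 markers summed to 417 and 265 RPKM with the KO label at 39.5 and 37 °C, against 2115 and 703 RPKM for the WT cultures at those temperatures. Of the B cell, erythroid and platelet markers that have a row, each list summed to at most 0.48 RPKM in any library. Of 5 CD8 and NK markers only 1, Cd8b1, had a row, at 2.86 to 4.01 RPKM. The 3 of 5 myeloid markers with a row summed to 2.77 to 8.26 RPKM, most of it from Cd68. Smad4 itself was at 21.3 and 20.7 RPKM with the KO label at 39.5 and 37 °C, against 14.2 and 14.0 RPKM in WT at 39.5 and 37 °C. The targeted gene was therefore higher, not lower, under the KO label, and every genotype direction that follows is that of the label. A value summed over the whole transcript does not show if a single exon was deleted.

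Most members peaked in a single library, WT at 37 °C. There 44 of the 49 members had their highest value, against 26.2% of all rows, and 0 of the 49 had their lowest (21.2% of all rows). The lowest value stood in the KO-labelled library at 39.5 °C for 10 members (20.9% of all rows), in that at 37 °C for 32 (28.7%) and in WT at 39.5 °C for 7 (29.2%). Together the members took 0.993% and 0.918% of reads with the KO label at 39.5 and 37 °C, against 1.23% and 1.48% of reads in WT at 39.5 and 37 °C. These are bulk samples, in which fewer cells of a type and less RNA per cell cannot be told apart. The 5 members that did not peak in WT at 37 °C were Polr1c, highest with the KO label at 37 °C (29.4% of all rows), and Nop58, Dkc1, Ddx10 and Tsr1, highest in WT at 39.5 °C (26.3%). None was highest with the KO label at 39.5 °C (18.1% of all rows).

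**Figure D1:**
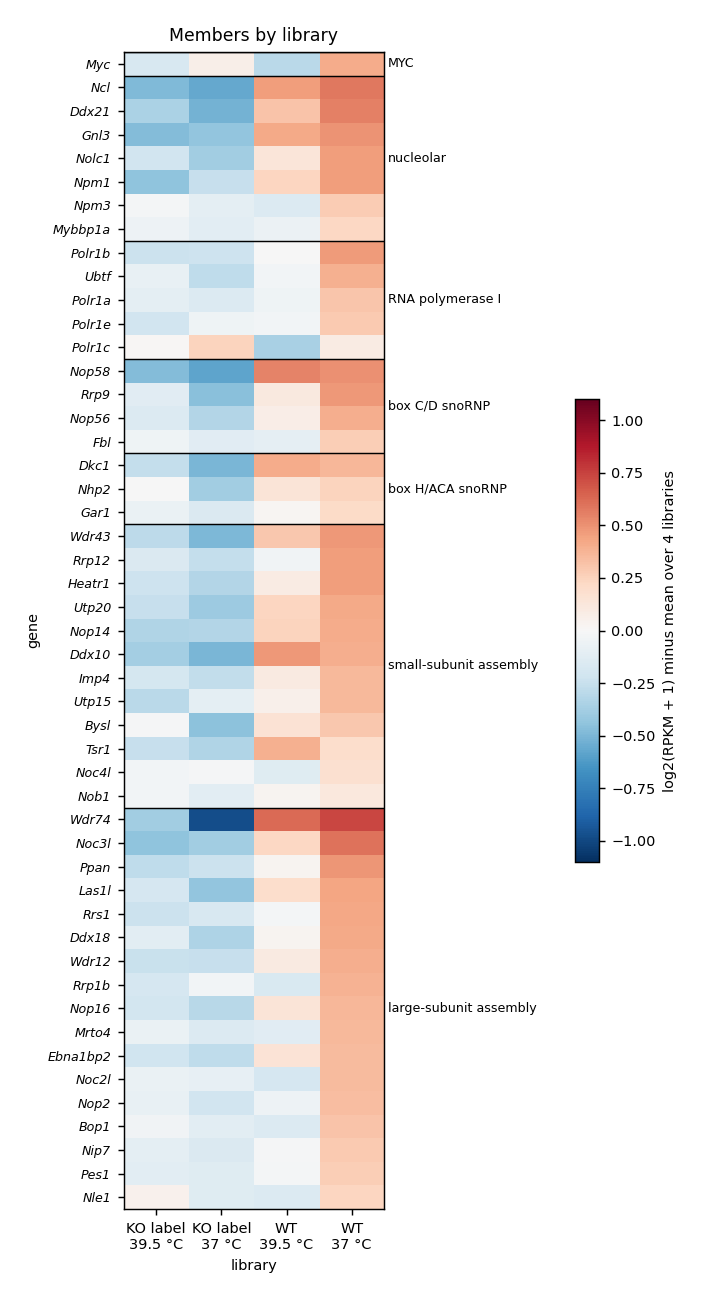
Log2(RPKM + 1) of each of the 49 members minus its own mean over the 4 libraries; rows are genes grouped by role, columns are libraries (39.5 °C left of 37 °C, KO label left of WT). The WT column at 37 °C is above the gene's mean for every gene, and the KO-labelled columns are below it for most.

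In the direct comparison at each temperature, most members were lower with the KO label, and by more at 37 °C. At 39.5 °C, 39 of 49 members were lower with the KO label (49.7% of all rows) and 10 were higher (50.3%). A difference of at least 0.32 on the log2(RPKM + 1) scale was found there for 19 lower members (19.9% of all rows) and for 1 higher member (21.1%). On that scale Nop58 alone was at least 2-fold lower at 39.5 °C (1.05% of all rows), and none was 2-fold higher (2.3%). At 37 °C, 48 of 49 members were lower (51.1% of all rows) and 1 was higher (48.9%). There 46 were lower by at least 0.32 (21.5% of all rows) and 0 higher (23.1%), and 4 were at least 2-fold lower (1.14%) and 0 higher (4.7%). The median log2 ratio of the members was −0.22 at 39.5 °C and −0.65 at 37 °C, beside 0.00 and −0.01 for all rows. The counting interval of the ratio, which narrows with a gene's reads, lay below 1 for 34 members (30.1% of all rows) and above 1 for 6 (31.5%) at 39.5 °C. At 37 °C it lay below 1 for 48 (32.1% of all rows) and above 1 for 1 (30.9%).

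Members were mostly higher at 39.5 °C with the KO label and mostly lower at 39.5 °C in WT. With the KO label, 36 of 49 were higher at 39.5 °C (48.7% of all rows) and 13 lower (51.3%). Among the 49, 4 were higher by at least 0.32 on the log2 scale (10.9% of all rows) and 0 lower (12.8%), and the median was 0.07, beside −0.01 for all rows. In WT, 4 members were higher at 39.5 °C (46.5% of all rows) and 45 lower (53.5%). Among the 49, 0 were higher by at least 0.32 (13.5% of all rows) and 22 lower (12.5%), and the median was −0.31, beside −0.02 for all rows. No member was 2-fold different with temperature, while over all rows 0.751% were so much higher and 0.911% so much lower under the KO label, and 1.46% higher and 0.525% lower in WT. The temperature log2 ratio with the KO label minus that in WT was above 0 for 48 members (49.6% of all rows) and below 0 for 1 (50.4%), with a median of 0.39. It was at least 0.32 above 0 for 30 (14.4% of all rows) and as far below for 0 (16.2%), and none reached 2-fold (0.671% of all rows above, 1.55% below). That difference uses all 4 libraries and leaves nothing to test it with. Each temperature pair shares libraries with both genotype pairs, so the 4 medians are not separate pieces of evidence.

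**Figure D2:**
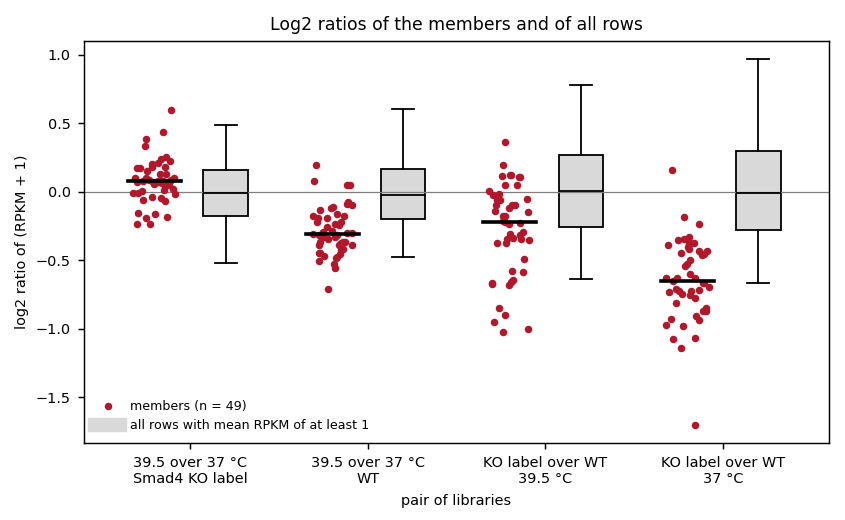
Log2 ratios of (RPKM + 1) for the 49 members (points, thick line at the median) and for all 13715 rows (box, median and middle 50%; whiskers span the central 90%) in each pair of libraries. Member medians stand at 0.07, −0.31, −0.22 and −0.65 from left to right, and those of all rows between −0.02 and 0.00.

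A test across features was possible only in an additive limma fit of all 4 libraries, where the interaction of genotype and temperature serves as the error. For genotype, 13 of 49 members fell with the KO label at a Benjamini-Hochberg adjusted p under 0.05 and 0 rose, while over all rows 4.7% fell and 8.57% rose. The 13 were Ncl, Npm1, Gnl3, Ddx21, Nop58, Dkc1, Nop14, Utp20, Wdr43, Ddx10, Tsr1, Noc3l and Wdr74, with log2 changes of −1.35 to −0.59 and adjusted p from 0.0148 to 0.0414. Of the other 36, 35 had a log2 change below 0 and the adjusted p ran from 0.0617 to 0.852. For temperature, 0 of 49 members passed (over all rows 0.0146% rose and 0.00729% fell). At an unadjusted p under 0.05 there were 2 members lower, Myc and Polr1c (6.79% of all rows), and 0 higher (7.17%). By limma-voom on the recovered reads 0 members passed as well, while over all rows 1.94% rose and 0.707% fell. The p-values set a change against the interaction and a trend over all rows, not against a spread between animals. A member whose genotype difference shrinks at 39.5 °C carries a larger error in this fit.

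GC content moved with the genotype comparison over all rows. Among 9903 rows with a known transcript GC content, the rows under 44% GC had a median log2 ratio, KO label over WT, of −0.34 at 39.5 °C and −0.22 at 37 °C. Rows over 56% GC had 0.21 at 39.5 °C and 0.08 at 37 °C. The 13 members past the genotype test had a median GC of 44.3%, against 52.8% for the 36 others. After subtracting the GC trend in each library, an alternative chosen after the data were seen, 4 of the 13 passed: Ncl (log2 −0.79 ± 0.12 SE, adjusted p = 0.0474), Gnl3 (−0.78 ± 0.11, 0.0409), Nop58 (−0.74 ± 0.12, 0.0476) and Wdr74 (−1.47 ± 0.18, 0.034). The other 9 then had adjusted p of up to 0.0951, all 13 had log2 changes below 0, and 1.19% of the rows with a GC value fell. With a minimum mean of 5 RPKM 22 members fell (9.68% of the rows above it), by limma-voom on the recovered reads 27 did (13.2%), and without any minimum 0 rows of the whole table passed for genotype. With the GC adjustment the medians of all 49 members were −0.24 at 39.5 °C and −0.65 at 37 °C. Set against the rows of their own GC range, 47 members lay below the range's median at 39.5 °C and 48 at 37 °C. The temperature ratio in WT moved with GC content too, with row medians of 0.09 under 44% GC and −0.08 over 56%. For the temperature log2 ratio with the KO label minus that in WT, the row medians were −0.10 and 0.12. The member median of that difference was 0.37 with the GC adjustment.

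**Figure D3:**
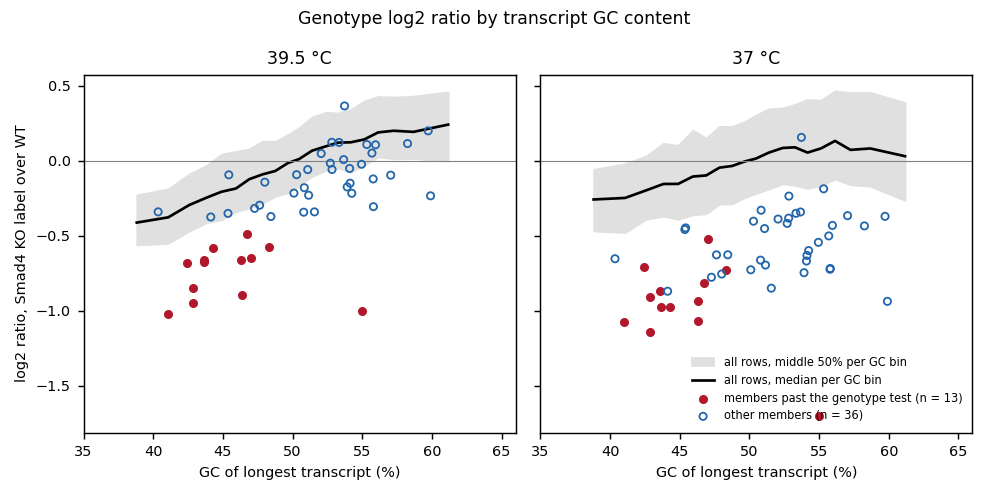
Log2 ratio of the KO-labelled library over WT at 39.5 °C (left) and 37 °C (right) against GC content of the longest annotated transcript; the line and band give the median and middle 50% of all rows in 20 GC bins, filled points the 13 members past the genotype test and open points the 36 others. The line climbs from left to right at 39.5 °C and most members lie below it; at 37 °C every member but Polr1c does.

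Myc, the transcription factor at the head of the list, was also its most abundant transcript by reads per length. It stood at 321.5 and 379 RPKM with the KO label at 39.5 and 37 °C, against 295.4 and 483 RPKM in WT at 39.5 and 37 °C. WT at 37 °C was thus the high library and WT at 39.5 °C the low one, with both KO-labelled libraries between them. The ratio of 39.5 to 37 °C was 0.848 (95% interval 0.831 to 0.867) with the KO label and 0.611 (0.599 to 0.624) in WT, the lowest of any member. The ratio of the KO label to WT was 1.09 (1.06 to 1.11) at 39.5 °C and 0.784 (0.769 to 0.799) at 37 °C, on opposite sides of 1. In the limma fit Myc passed for neither genotype (log2 −0.11 ± 0.14 SE, adjusted p = 0.602) nor temperature (−0.47 ± 0.14, adjusted p = 0.253).

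Nucleolar proteins with several roles made up 7 members, and 4 of them, Ncl, Npm1, Gnl3 and Ddx21, fell with the KO label (4.7% of all rows). Ncl encodes nucleolin, an abundant RNA-binding protein of the nucleolus. It stood at 54.4 and 51.6 RPKM with the KO label at 39.5 and 37 °C, against 105.8 and 115 RPKM in WT at 39.5 and 37 °C. The limma log2 change of Ncl for genotype was −1.04 ± 0.12 SE (adjusted p = 0.0148). Npm1, which encodes nucleophosmin and has processed pseudogenes that can share its reads, was at 87.2 and 99.4 RPKM with the KO label at 39.5 and 37 °C, against 140.3 and 163 RPKM in WT at 39.5 and 37 °C. It was lower at 39.5 °C under both labels, by ratios of 0.877 (0.841 to 0.914) with the KO label and 0.859 (0.831 to 0.886) in WT, the closest match of any member on the log2 scale. Ddx21, an RNA helicase active in rRNA transcription and processing, was at 72.1 and 63.9 RPKM with the KO label at 39.5 and 37 °C, against 115 and 135 RPKM in WT at 39.5 and 37 °C (log2 −0.87 ± 0.14, adjusted p = 0.0243). Gnl3, the gene of nucleostemin, was at 7.91 and 8.17 RPKM with the KO label at 39.5 and 37 °C, against 15.6 and 16.5 RPKM in WT at 39.5 and 37 °C. The intervals of its temperature ratios included 1 under both labels. The 3 remaining nucleolar members did not pass. Mybbp1a, a MYB-binding nucleolar protein gene, was at 234 and 225 RPKM with the KO label at 39.5 and 37 °C, against 233 and 285 RPKM in WT at 39.5 and 37 °C. At 39.5 °C the labels matched closely for this gene (ratio 1.005, 0.988 to 1.02). Nolc1, a nucleolar chaperone of snoRNPs, had genotype ratios of 0.788 at 39.5 °C and 0.552 at 37 °C, and Npm3, a relative of Npm1, had 1.09 at 39.5 °C and 0.762 at 37 °C.

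**Figure D4:**
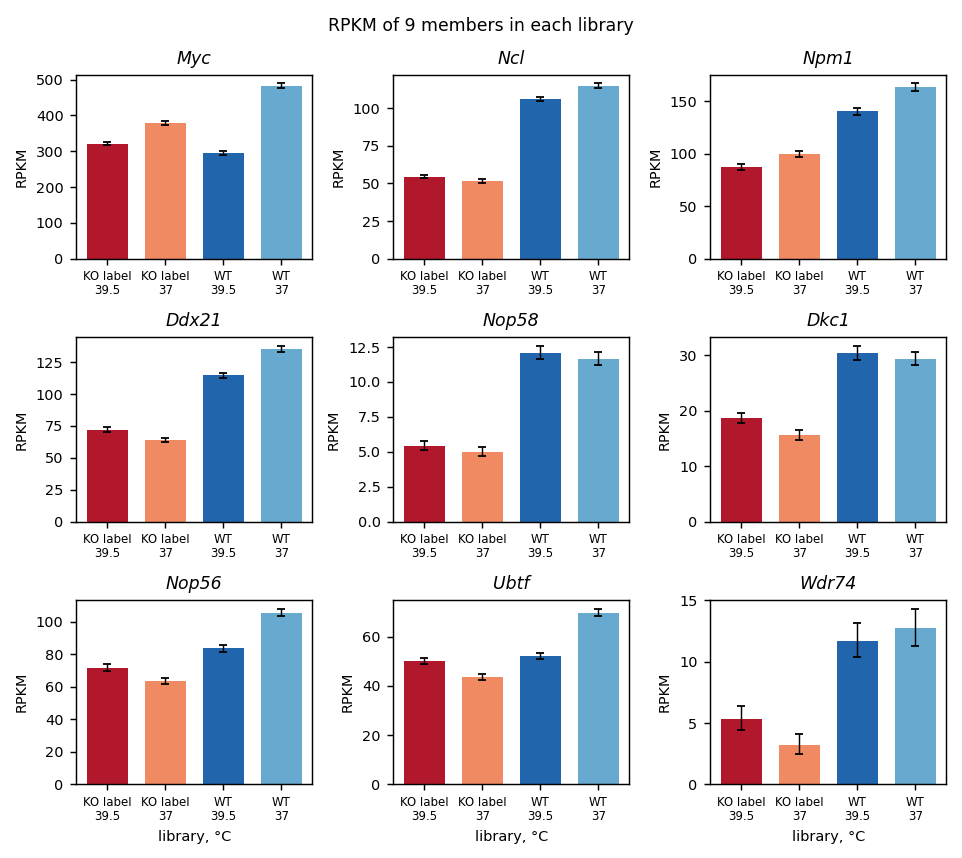
RPKM of 9 members in each library (bars from 0; error bars are exact 95% Poisson intervals of the recovered reads, counting error only). Ncl, Npm1, Ddx21, Nop58, Dkc1 and Wdr74 are lower with the KO label at both temperatures. Nop56 and Ubtf are too, by less at 39.5 °C than at 37 °C, and with Myc they stand out in WT at 37 °C.

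None of the 5 RNA polymerase I genes passed the genotype test. Few of all rows did either (4.7% fell and 8.57% rose), so this count does not set these genes apart. All 5 were lower at 39.5 °C in WT (53.5% of all rows), with a median log2 of −0.42. Their median genotype log2 ratio was −0.06 at 39.5 °C and −0.45 at 37 °C. Ubtf, which encodes the factor that keeps ribosomal DNA open and recruits the polymerase, was at 50.1 and 43.5 RPKM with the KO label at 39.5 and 37 °C, against 51.9 and 69.7 RPKM in WT at 39.5 and 37 °C. Its ratio of 39.5 to 37 °C was 1.15 (1.11 to 1.20) with the KO label and 0.745 (0.721 to 0.77) in WT, opposite in direction. Polr1a, the gene of the largest subunit, was at 22.2 and 21.5 RPKM with the KO label at 39.5 and 37 °C, against 23.2 and 29.8 RPKM in WT at 39.5 and 37 °C. Polr1b, the gene of the second-largest subunit, had a temperature ratio of 0.994 (0.946 to 1.04) with the KO label and 0.714 (0.685 to 0.745) in WT. Polr1c encodes a subunit that RNA polymerase III also uses, and it was the only member above WT at both temperatures with both intervals clear of 1. It stood at 35.002 and 41.5 RPKM with the KO label at 39.5 and 37 °C, against 27.0 and 37.1 RPKM in WT at 39.5 and 37 °C (genotype log2 0.26 ± 0.13, adjusted p = 0.21). Polr1e, another subunit gene, was lower at 39.5 °C by ratios of 0.884 with the KO label and 0.792 in WT.

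Among the box C/D snoRNP genes, Nop58 fell with the KO label (4.7% of all rows) and the 3 others did not pass. Nop58 and Nop56 encode paired core proteins of the particle and Fbl the methyltransferase fibrillarin. Nop58 was at 5.45 and 5.01 RPKM with the KO label at 39.5 and 37 °C, against 12.1 and 11.7 RPKM in WT at 39.5 and 37 °C. Its temperature ratios were 1.09 with the KO label and 1.03 in WT, both intervals including 1. Nop56, in contrast, was at 71.8 and 63.4 RPKM with the KO label at 39.5 and 37 °C, against 83.6 and 106 RPKM in WT at 39.5 and 37 °C. The genotype log2 change was −1.05 ± 0.12 for Nop58 (adjusted p = 0.0148) and −0.47 ± 0.16 for Nop56 (adjusted p = 0.102), and the difference between these genes was not tested. Fbl had genotype ratios of 1.03 (0.986 to 1.08) at 39.5 °C and 0.759 (0.725 to 0.796) at 37 °C. Rrp9, a protein of the snoRNP needed for early cleavage of the precursor rRNA, was at 51.98 and 40.98 RPKM with the KO label at 39.5 and 37 °C, against 61.3 and 79.4 RPKM in WT at 39.5 and 37 °C. Its temperature ratios were 1.27 (1.20 to 1.34) with the KO label and 0.772 (0.738 to 0.808) in WT, a difference of 0.70 on the log2(RPKM + 1) scale.

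Of the 3 box H/ACA snoRNP genes, Dkc1 fell with the KO label (4.7% of all rows). It encodes dyskerin, the pseudouridine synthase, and was at 18.7 and 15.7 RPKM with the KO label at 39.5 and 37 °C, against 30.4 and 29.4 RPKM in WT at 39.5 and 37 °C (log2 −0.77 ± 0.13, adjusted p = 0.0243). Nhp2, a core protein gene, was at 227 and 174 RPKM with the KO label at 39.5 and 37 °C, against 252 and 270.4 RPKM in WT at 39.5 and 37 °C. The KO-labelled library at 37 °C was the low one here, and the temperature ratio with the KO label was 1.31 (1.249 to 1.36). Gar1, the remaining core protein gene, had genotype ratios of 0.934 at 39.5 °C and 0.771 at 37 °C.

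Small-subunit assembly genes numbered 12, and 5 of them fell with the KO label (4.7% of all rows): Nop14, Utp20, Wdr43, Ddx10 and Tsr1. Set against WT, 11 were lower under the KO label at 39.5 °C (median log2 −0.33) and all 12 at 37 °C (median −0.73). The shares of all rows lower in these pairs were 49.7% at 39.5 °C and 51.1% at 37 °C. Wdr43, a scaffold protein gene of the early particle, was at 24.2 and 20.7 RPKM with the KO label at 39.5 and 37 °C, against 36.8 and 41.8 RPKM in WT at 39.5 and 37 °C (log2 −0.78 ± 0.15, adjusted p = 0.0314). Ddx10, an RNA helicase gene, was at 6.09 and 5.47 RPKM with the KO label at 39.5 and 37 °C, against 11.8 and 11.1 RPKM in WT at 39.5 and 37 °C. Neither of its temperature ratios had an interval clear of 1. Tsr1, which acts late in small-subunit maturation, was at 10.9 and 10.3 RPKM with the KO label at 39.5 and 37 °C, against 17.7 and 15.3 RPKM in WT at 39.5 and 37 °C. It was the only member whose temperature log2 ratio was smaller with the KO label (0.07) than in WT (0.19). Nop14, an early assembly factor gene, was at 19.3 and 19.4 RPKM with the KO label at 39.5 and 37 °C, against 29.3 and 32.9 RPKM in WT at 39.5 and 37 °C. Utp20, a large scaffold protein gene, was at 12.2 and 10.9 RPKM with the KO label at 39.5 and 37 °C, against 17.5 and 19.9 RPKM in WT at 39.5 and 37 °C. In the limma fit the adjusted p for genotype was 0.0325 for Nop14 and 0.0414 for Utp20.

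The 7 other small-subunit members did not pass the genotype test, and WT at 37 °C was the highest library for each. Rrp12, which helps export of the particle, was at 46.8 and 43.7 RPKM with the KO label at 39.5 and 37 °C, against 51.0 and 72.7 RPKM in WT at 39.5 and 37 °C. Bysl, the gene of bystin, was at 45.9 and 33.7 RPKM with the KO label at 39.5 and 37 °C, against 52.01 and 57.3 RPKM in WT at 39.5 and 37 °C. Its KO-labelled value at 37 °C was the low one, with a temperature ratio of 1.36 (1.29 to 1.44) under that label. Noc4l, the most abundant of the set per length, was at 104 and 105 RPKM with the KO label at 39.5 and 37 °C, against 96.5 and 120.2 RPKM in WT at 39.5 and 37 °C. Utp15, a processome component, was lower at 39.5 °C under both labels (ratios 0.866 with the KO label and 0.802 in WT). Nob1, the endonuclease of the last cleavage, had genotype ratios of 0.959 at 39.5 °C and 0.845 at 37 °C, among the smallest differences of the list. Heatr1 and Imp4, both processome components, had genotype ratios of 0.796 and 0.805 at 39.5 °C and of 0.574 and 0.632 at 37 °C.

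Large-subunit assembly genes numbered 17, and 2 of them, Noc3l and Wdr74, fell with the KO label (4.7% of all rows). Set against WT, 13 were lower under the KO label at 39.5 °C (median log2 −0.14) and all 17 at 37 °C (median −0.60). Between the 2 temperatures in WT, all 17 were lower at 39.5 than at 37 °C (median −0.39). The shares of all rows lower in these pairs were 49.7%, 51.1% and 53.5%, in that order. Wdr74, a factor gene of early large-subunit particles, had the largest genotype difference of any member at 37 °C and in the limma fit, while at 39.5 °C Nop58 was lower still. It was at 5.36 and 3.22 RPKM with the KO label at 39.5 and 37 °C, against 11.7 and 12.7 RPKM in WT at 39.5 and 37 °C, from only 120 and 69 reads against 275 and 282. The ratio of the KO label to WT was 0.458 (0.366 to 0.569) at 39.5 °C and 0.253 (0.191 to 0.330) at 37 °C, and the ratio of 39.5 to 37 °C with the KO label was 1.67 (1.23 to 2.27). Noc3l, named for the yeast protein Noc3 of pre-ribosome transport, was at 6.26 and 6.57 RPKM with the KO label at 39.5 and 37 °C, against 10.5 and 13.9 RPKM in WT at 39.5 and 37 °C (log2 −0.82 ± 0.14, adjusted p = 0.0263).

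The most abundant large-subunit genes per length separated WT at 37 °C from the other 3 libraries. Noc2l, whose product works with Noc3l in yeast, was at 174 and 173 RPKM with the KO label at 39.5 and 37 °C, against 162 and 233 RPKM in WT at 39.5 and 37 °C. Nop2, an rRNA methyltransferase gene, was at 123 and 112 RPKM with the KO label at 39.5 and 37 °C, against 125 and 164 RPKM in WT at 39.5 and 37 °C. For both, the genotype ratio was nearer to 1 at 39.5 °C, at 1.08 (1.05 to 1.11) for Noc2l and 0.983 (0.95 to 1.02) for Nop2. The complex of Pes1, Bop1 and Wdr12, needed for processing of the large-subunit rRNAs, had genotype ratios of 0.936, 1.08 and 0.744 at 39.5 °C and of 0.754, 0.738 and 0.574 at 37 °C. Rrp1b had temperature ratios of 0.895 (0.852 to 0.941) with the KO label and 0.671 (0.642 to 0.702) in WT, the lowest in WT after Myc. Nle1, a factor gene of late nuclear particles, was the member after Polr1c with the highest genotype ratio at 39.5 °C, 1.15 (1.07 to 1.24), although it was 0.766 (0.713 to 0.822) at 37 °C. Ddx18, an RNA helicase gene, had temperature ratios of 1.17 (1.09 to 1.27) with the KO label and 0.759 (0.713 to 0.809) in WT. For the other members of the set (Nop16, Rrs1, Nip7, Ppan, Ebna1bp2, Mrto4 and Las1l) the genotype ratio ran from 0.749 to 1.04 at 39.5 °C and from 0.511 to 0.725 at 37 °C.

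**Figure D5:**
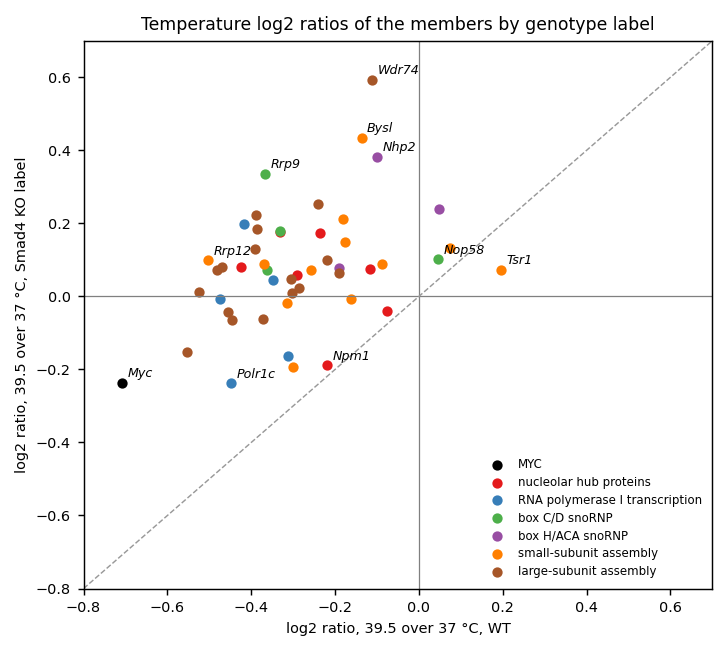
Log2 ratio of 39.5 over 37 °C with the KO label (y axis) and in WT (x axis) for the 49 members, coloured by role; the dashed line marks equal ratios. Of 49 points 48 lie above the dashed line, Tsr1 below it, and 32 lie at the upper left, lower at 39.5 °C in WT and higher with the KO label.

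The upper left of that plot held 32 of 49 members (20.9% of all rows), and for 21 of them both counting intervals excluded 1 (5.36% of all rows). Proliferation markers were measured beside them. The sum of Mki67, Top2a, Pcna, Ccnb1 and Ccna2 was 175 and 139 RPKM with the KO label at 39.5 and 37 °C, against 221 and 160 RPKM in WT at 39.5 and 37 °C. It was thus higher at 39.5 °C under both labels, while the members were lower at 39.5 °C in WT. The part of these genes in the result was not tested.

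Several members carry snoRNA genes inside their own gene body on the same strand, by GENCODE M21: Ncl, Gnl3, Nop56, Nop58, Dkc1, Wdr43, Tsr1 and Ppan. Of these 8, 6 fell with the KO label, and of the 41 others 7 did, while 4.7% of all rows fell. The difference was not tested. The median GC content was 45.3% for the 8 and 52.1% for the 41. After GC adjustment 3 of the 8 (Ncl, Gnl3 and Nop58) and 1 of the 41 passed, while 1.19% of the rows with a GC value fell. The median genotype log2 ratio of the 8 was −0.66 at 39.5 °C and −0.90 at 37 °C, against −0.15 at 39.5 °C and −0.63 at 37 °C for the 41. From a list of non-coding snoRNA host genes, Gas5 (log2 −0.54 ± 0.12), Snhg4 (−0.88 ± 0.15) and Snhg5 (−0.94 ± 0.13) fell with the KO label and 0 of 13 (16 listed) rose. The shares of all rows were 4.7% fallen and 8.57% risen. Snhg5 was at 11.7 and 11.7 RPKM with the KO label at 39.5 and 37 °C, against 24.4 and 22.2 RPKM in WT at 39.5 and 37 °C. After GC adjustment 1 of the 11 such genes with a GC value fell (1.19% of all rows with one).

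Promoter windows, from 250 bases before to 50 after the annotated start (RefSeq, GRCm38.p6), were found for 43 of the 49 members. The MYC-binding E-box letters CACGTG, which read the same on both strands, were in the window of 8 of the 43 (18.6%), against 12.7% of 7203 genes with a window among the rows compared. The related letters CACGCG, searched on both strands, were in 15 (34.9%), against 21.7%. Among the 12 members past the genotype test that have a window, 3 hold CACGTG (Tsr1, Utp20 and Wdr43) and 2 hold CACGCG (16.7%). Their windows are shown with the E-box in capitals, to place it relative to the start, on GRCm38.p6 (Tsr1 chr11:74897830-74898129, plus strand; Utp20 chr10:88826765-88827064, minus strand; Wdr43 chr17:71615965-71616264, plus strand).
Tsr1: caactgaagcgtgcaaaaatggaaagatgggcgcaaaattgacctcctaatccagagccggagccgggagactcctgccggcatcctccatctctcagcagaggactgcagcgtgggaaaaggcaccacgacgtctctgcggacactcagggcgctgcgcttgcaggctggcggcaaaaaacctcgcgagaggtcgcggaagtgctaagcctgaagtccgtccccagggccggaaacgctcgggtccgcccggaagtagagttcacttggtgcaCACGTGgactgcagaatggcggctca
Utp20: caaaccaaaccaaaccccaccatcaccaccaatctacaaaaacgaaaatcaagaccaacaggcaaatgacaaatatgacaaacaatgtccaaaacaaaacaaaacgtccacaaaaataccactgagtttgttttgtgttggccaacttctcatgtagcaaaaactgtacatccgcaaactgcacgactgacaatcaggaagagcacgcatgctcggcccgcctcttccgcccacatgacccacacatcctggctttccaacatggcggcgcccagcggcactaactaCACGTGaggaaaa
Wdr43: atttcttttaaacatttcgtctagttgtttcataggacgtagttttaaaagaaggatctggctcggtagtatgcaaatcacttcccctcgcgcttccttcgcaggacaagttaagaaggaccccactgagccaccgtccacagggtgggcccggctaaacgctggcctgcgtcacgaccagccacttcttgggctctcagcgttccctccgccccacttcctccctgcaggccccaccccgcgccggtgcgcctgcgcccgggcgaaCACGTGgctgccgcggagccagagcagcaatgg
In these the E-box begins 24, 37 and 17 bases downstream of the start. The windows of Ncl (chr1:86359406-86359705, minus strand) and Nop58 (chr1:59684756-59685055, plus strand), the members with the lowest adjusted p for genotype, hold no CACGTG and no CACGCG, and are given for comparison.
Ncl: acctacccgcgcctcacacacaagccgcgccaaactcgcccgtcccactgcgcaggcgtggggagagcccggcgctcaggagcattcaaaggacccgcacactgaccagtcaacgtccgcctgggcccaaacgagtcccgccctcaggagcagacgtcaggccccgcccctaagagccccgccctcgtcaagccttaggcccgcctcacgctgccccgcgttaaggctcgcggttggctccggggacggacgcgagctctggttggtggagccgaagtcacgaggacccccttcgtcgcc
Nop58: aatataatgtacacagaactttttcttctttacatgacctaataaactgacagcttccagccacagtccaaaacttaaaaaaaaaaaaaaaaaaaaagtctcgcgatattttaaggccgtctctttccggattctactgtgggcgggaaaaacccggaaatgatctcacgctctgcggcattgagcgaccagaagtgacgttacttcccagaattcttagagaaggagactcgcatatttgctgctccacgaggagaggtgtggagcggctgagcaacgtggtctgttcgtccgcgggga
A match of letters is not a binding site, and these windows leave out introns and distal elements.

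In the lists of other assembly factors, medians were below 0 with the KO label and nearly all calls were falls; after GC adjustment 1 call was left. For all these lists the shares of all rows that fell (4.7%) and rose (8.57%) apply. With GC adjustment the shares, over the rows with a GC value, were 1.19% and 4%. Of 44 further small-subunit assembly genes with a mean of at least 1 RPKM (46 listed), 13 fell and 0 rose with the KO label, and the median log2 ratio was −0.22 at 39.5 °C and −0.57 at 37 °C. They were Pno1 (log2 −1.07 ± 0.16 SE), Mphosph10 (−0.86), Utp18 (−0.79), Ltv1 (−0.73), Utp14a (−0.69), Pwp2 (−0.67), Krr1 (−0.66), Bms1 (−0.63), Wdr75 (−0.61), Wdr3 (−0.59), Utp6 (−0.57), Tsr2 (−0.57) and Ddx52 (−0.55). Pno1, a late small-subunit factor gene, was at 26.3 and 18.3 RPKM with the KO label at 39.5 and 37 °C, against 47.1 and 47.5 RPKM in WT at 39.5 and 37 °C. Of 46 further large-subunit genes (49 listed), 13 fell and 1 rose, with medians of −0.27 at 39.5 °C and −0.53 at 37 °C. Those that fell were Brix1 (−0.81), Rpf2 (−0.81), Znhit6 (−0.79), Gtpbp4 (−0.78), Spata5 (−0.76), Rrp15 (−0.72), Mak16 (−0.67), Ftsj3 (−0.67), Nifk (−0.67), Rsl24d1 (−0.66), Rsl1d1 (−0.66), Lyar (−0.64) and Rpf1 (−0.56). The gene that rose was Gltscr2 (0.77 ± 0.13), a large-subunit assembly factor gene. With GC adjustment 0 of the 44 and 1 of the 46 fell and 0 rose in either list.

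RNA polymerase and exosome genes outside the members were also measured. Of 11 further RNA polymerase I genes (14 listed), Twistnb (log2 −0.83 ± 0.13), a subunit gene, and Taf1d (−0.65 ± 0.13), a subunit gene of the promoter selectivity factor, fell with the KO label and 0 rose. Rrn3, which brings the polymerase to its promoter, was at 31.2 and 29.3 RPKM with the KO label at 39.5 and 37 °C, against 37.3 and 40.4 RPKM in WT at 39.5 and 37 °C (not past the test, adjusted p = 0.12). Of 21 RNA polymerase III genes, Polr3d (−0.56), Polr3g (−0.59) and Bdp1 (−0.66) fell and Polr3gl (0.70) rose. Polr3g and Polr3gl encode alternative forms of the same subunit and changed in opposite directions; the contrast between them was not tested. Polr3gl was at 3.50 and 6.35 RPKM with the KO label at 39.5 and 37 °C, against 1.75 and 3.54 RPKM in WT at 39.5 and 37 °C. Of 13 RNA exosome genes, Dis3 (−0.77), the catalytic nuclease gene, and Skiv2l2 (−0.58), its nuclear helicase cofactor, fell. With GC adjustment 0 fell in the polymerase I and exosome lists and 1 in the polymerase III list, and 0 rose.

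In the MYC network, 1 of 9 genes (12 listed) rose with the KO label (8.57% of all rows) and 0 fell (4.7%). Mxi1, a MAX partner that opposes MYC, was at 20.7 and 38.3 RPKM with the KO label at 39.5 and 37 °C, against 11.0 and 10.2 RPKM in WT at 39.5 and 37 °C (log2 1.33 ± 0.24, adjusted p = 0.029). Max, the obligate partner of MYC, was at 55.2 and 59.2 RPKM with the KO label at 39.5 and 37 °C, against 58.4 and 72.6 RPKM in WT at 39.5 and 37 °C (not past the test, adjusted p = 0.338). The other 7 genes did not pass either. Their genotype log2 changes were 0.69 for Mxd1, 0.51 for Mxd3, 0.63 for Mxd4, −0.19 for Mnt, −0.54 for Mga, 0.13 for Mlx and −0.08 for Mlxip. Mxd1 had a genotype ratio of 0.993 at 39.5 °C and 3.59 at 37 °C. Of 36 other MYC target genes, 7 fell with the KO label (4.7% of all rows) and 3 rose (8.57%). Those that fell were Hspd1 (−0.79), Srsf1 (−0.74), Ccnd2 (−0.70), Kpna2 (−0.60), Eif4e (−0.57), Tfb2m (−0.54) and Tfrc (−0.53). The 3 that rose were Eif4ebp1 (0.94), an inhibitor gene of cap-dependent translation, and the glycolysis genes Hk2 (0.58) and Ldha (0.42). Of 26 nucleotide and polyamine synthesis genes, Prps1 (−0.73) fell and 0 rose, with a median of −0.18 at 39.5 °C and −0.41 at 37 °C. Srm, the spermidine synthase gene, was at 309 and 231 RPKM with the KO label at 39.5 and 37 °C, against 343 and 430 RPKM in WT at 39.5 and 37 °C. With GC adjustment 0 of the 36 and 0 of the 26 fell (1.19% of the rows with a GC value). In each of these lists 1 gene rose, as did 1 of the MYC network (4% of those rows).

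Of 9 measured genes that link ribosome production to p53 (11 listed), 0 passed for genotype in limma (over all rows 4.7% fell and 8.57% rose). At an unadjusted p under 0.05 there were also 0, while 15.6% of all rows were lower and 19.0% higher. The list includes Cdkn1a, the p21 gene, at 130.3 and 137 RPKM with the KO label at 39.5 and 37 °C, against 178 and 22.3 RPKM in WT at 39.5 and 37 °C. Sesn2, a stress-induced p53 target gene, was at 16.1 and 12.1 RPKM with the KO label at 39.5 and 37 °C, against 25.6 and 7.19 RPKM in WT at 39.5 and 37 °C. WT at 37 °C was the low library for both genes. Both were above WT with the KO label at 37 °C and below it at 39.5 °C. The limma fit counts such a reversal as error, so it could hardly call these genes for genotype. Cdkn1a and Sesn2 were named for the size of their change, although neither passed, so they do not stand for the list as a whole. Of the 9 genes, 4 were higher at 39.5 °C in WT (46.5% of all rows) and 5 lower (53.5%). Their median log2 ratio in that pair was −0.07. At 37 °C, 6 of the 9 were higher with the KO label (48.9% of all rows) and 3 lower (51.1%), with a median of 0.23. For temperature, 0 genes passed in any of these lists (over all rows 0.0146% rose and 0.00729% fell).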

How the data were processed

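RNA-seq of 4 libraries, 1 for each combination of genotype label and temperature, was used. The authors deposited 1 table of RPKM values per library; the submitters' processing notes name featureCounts, Subread, edgeR, Bowtie2 and Trim Galore 0.4.4, and the build mm10, with no settings. The sources used here do not state the annotation release or strand setting, so reads of antisense or overlapping genes cannot be told apart. Bowtie2 does not split reads over introns.

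Whole reads were recovered as RPKM × exon length × library size. With GENCODE M21 lengths 12053 of 13144 rows (91.7%) came out whole within 0.01 reads, and other rows took the shortest length that gave whole reads within 0.003 (Nolc1, Wdr43, Rrp12, Wdr74 and Rrp1b), so their reads are the fewest that fit the values. The library sizes behind the RPKM were 0.996 and 0.955 times the recovered reads with the KO label at 39.5 and 37 °C, against 1.06 and 1.01 times in WT at 39.5 and 37 °C. Ratios carry exact Clopper-Pearson 95% intervals. PCR reads are not independent molecules, so intervals cover counting error only.

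Log2 ratios were taken on log2(RPKM + 1), keeping rows whose mean reached 1 RPKM. This scale understates the change of low genes. Limma 3.58.1 in R 4.3.3 fitted genotype plus temperature (trend, 1 residual degree of freedom, Benjamini-Hochberg over 13715 rows, threshold 0.05, two-sided). The simulated data it was tried on held temperature changes only, so they do not check the genotype calls. The members and lists were chosen with earlier results of these data known. Named genes were Myc, members past the threshold, the 3 highest and lowest in each comparison, abundant members of each role and, from the lists, genes past the threshold. Rrn3, Srm and the MYC network genes besides Mxi1 were named after their values were seen. Cdkn1a and Sesn2 come from a list in which no gene passed and were named for the size of their change. Alternatives were a pseudocount of 0.1, a minimum mean of 0 or 5 RPKM, other scalings, no variance trend, limma-voom and a GC adjustment.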

Additional observations from a re-analysis of the deposited data

Results flagged for a closer look

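The median temperature ratio of the members lay on opposite sides of 1 under the labels: the median log2 ratio of 39.5 over 37 °C was 0.0749 with the KO label and −0.305 in WT. Of the 49 members, 32 were higher at 39.5 °C with the KO label and lower in WT (20.9% of all rows), and for 21 both intervals excluded 1 (5.36%). Others, Myc and Npm1 among them, were lower under both labels. The difference between the labels was not tested, since each label has 1 library per temperature. It also moved with GC content over all rows, and the member median of the difference was 0.37 with GC adjustment, against 0.39 without. The 5 members with the largest gap among those 21 follow. Rrp9 had a ratio of 1.27 with the KO label and 0.772 in WT. Ubtf had 1.15 with the KO label and 0.745 in WT. Ddx18 had 1.17 with the KO label and 0.759 in WT, and Rrp12 had 1.07 with the KO label and 0.701 in WT. Bysl had 1.36 with the KO label and 0.908 in WT. These values were picked by their gap, so they describe the extremes of the list.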

How the results depend on the processing

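The 5 member medians kept their sign under every alternative for which they were computed. They were not computed for the fits without a variance trend or by limma-voom. Shares of all rows are over the rows each alternative tests. Scaling to recovered reads moved the median genotype log2 ratio at 39.5 °C to −0.30, and that of all rows with it, to −0.07. It took the members lower by at least 0.32 (log2) at 39.5 °C in WT to 14 (8.74% of all rows), against 22 (12.5%). Members that fell with the KO label numbered 0 without a minimum mean (0 of all rows), 22 with a minimum of 5 RPKM (9.68% of all rows), 27 with limma-voom on recovered reads (13.2%) and 4 with GC adjustment (1.19%), against 13 in the main analysis (4.7%). Calls over all rows moved the same way each time; the cause was not tested. Scaling to recovered reads and upper quartile scaling each gave 17 (7.26% and 5.82% of all rows). All 13 called members stayed below 0 in each alternative. Members at least 2-fold different at 37 °C with the KO label numbered 8 with a pseudocount of 0.1 RPKM (8.9% of all rows) or scaling to recovered reads (5.57%) and 1 with GC adjustment (5.35%), against 4 (5.84%). At 39.5 °C they numbered 2 with that pseudocount (6.31% of all rows) or median centring (3.29%) and 3 with scaling to recovered reads (3.23%) or upper quartile scaling (3.19%), against 1 (3.35%). The 1 member higher with the KO label by at least 0.32 (log2) at 39.5 °C (21.1% of all rows) became 0 with scaling to recovered reads (16.7%), upper quartile scaling (17.4%) or GC adjustment (16.9%). No member passed for temperature in any of these fits. No paired analysis was possible because each group holds 1 library; leaving out a library leaves no residual degrees of freedom. The fewest reads of a member in a library were 69, for Wdr74.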
